A study of Mus musculus with 8 samples.

Results

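A set of 10 genes of the BCL2 family was followed in regulatory T (Treg) cells that had lost, kept or regained BRG1, the ATPase of the BAF chromatin remodelling complex encoded by Smarca4. The members were 3 anti-apoptotic genes (Bcl2, Mcl1 and Bcl2l1), 2 effector genes (Bax and Bak1) and 5 BH3-only genes (Bcl2l11, Bid, Bad, Bbc3 and Pmaip1), taken by symbol. All 10 were found among the 53465 gene identifiers of the files. There were 8 RNA-seq libraries, 1 per group, in a total Treg experiment of 6 libraries and a separate aTreg experiment of 2. Ratios between libraries were taken only within each experiment. Ranges and ranks given over all 8 libraries are descriptive and span both experiments.

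The BCL2 family sets the threshold for mitochondrial apoptosis. Anti-apoptotic members hold the effectors BAX and BAK1 in check, the effectors open pores in the outer mitochondrial membrane, and BH3-only members, which sense growth factor loss, DNA damage or other stress, release or activate the effectors. In Treg cells, survival is known to depend strongly on Mcl1 and to be limited by the BH3-only gene Bcl2l11 (Bim), while many of these proteins are also controlled after translation, so that RNA levels describe only part of their regulation.

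All mice were listed as C57BL/6 and were 3 to 4 weeks old, and cells came from spleen and lymph nodes. Every group carried R26CAG-FlpoER, a tamoxifen (TAM)-activated Flpo recombinase driven by a ubiquitous promoter. The WT library was labelled BrgF/+ with Foxp3YFP-Cre/+, so that its cells were heterozygous for the floxed allele and Cre was driven by Foxp3, in Treg cells. The mosaic females were BrgF/ΔR, where ΔR is a Brg1 allele stopped by a removable gene trap that also makes GFP. Because Foxp3 is X-linked, these healthy females held Treg cells without Cre activity (mosaic Brg1-sufficient, labelled Foxp3+/+) and with it (mosaic Brg1-deleted, labelled Foxp3YFP-Cre). The rKO1 mice, BrgF/ΔR with Foxp3YFP-Cre/YFP-Cre, were the severely inflamed animals in which Treg cells lacked BRG1. Their Treg cells were taken untreated (rKO1 untreated) or on Day 7 after a low dose of TAM, which removes the trap in a fraction of cells. GFP-positive cells gave the rKO1 TAM Brg1-deleted library, and GFP-negative cells, labelled BrgF/+, gave the rKO1 TAM Brg1-reexpressed library. The aTreg libraries were the same GFP fractions after a CD44hi CD62Llo gate for activated Treg cells. The library titled Brg1-deleted was labelled BrgF/F and its column was headed WT(a), while the other was labelled BrgF/+, so both are named by their titles as labels. The paper states that ΔR mice came from a mixed background and were backcrossed to C57BL/6 for fewer generations than the other strains. The background of WT and of the other groups may therefore differ. The number of mice behind a library was not given in the sources used here. With 1 library per group there was no replicate check, no test was possible, and no p-value is given.

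The targeted gene was checked first. Smarca4 (chromosome 9, 21616169–21704230, GRCm38) stood at 14.8 FPKM in WT, 12.1 in mosaic Brg1-sufficient, 7.44 in mosaic Brg1-deleted, 7.34 in rKO1 untreated, 6.13 in rKO1 TAM Brg1-deleted and 9.52 in rKO1 TAM Brg1-reexpressed cells. In the 6 total Treg libraries, the 3 labelled as having BRG1 were thus above the 3 labelled as lacking it in FPKM. This separation depended on scaling. With reads scaled to a common library size (CPM), rKO1 TAM Brg1-reexpressed cells had 50.2, just below rKO1 untreated cells at 51.6. WT and mosaic Brg1-sufficient cells, at 84.0 and 70.9 CPM, stayed above mosaic Brg1-deleted (47.6) and rKO1 TAM Brg1-deleted cells (39.8). In the aTreg experiment, the library labelled Brg1-deleted had 11.1 FPKM and the library labelled Brg1-reexpressed had 9.02. This order went against the labels (1.23-fold, 95% interval 1.14 to 1.34), and exons upstream of the trap are still transcribed, so the gene total is only a partial check. Any direction drawn from the aTreg pair rests on these labels.

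FPKM, fragments per kilobase of exon scaled to sequencing depth, is a level per transcript length, so that members can be set beside each other within a library. The reads behind each value were recovered by multiplying FPKM with exon length, and the libraries held 16324007 to 24093549 reads on genes. Intervals below are exact binomial 95% intervals of these reads, which cover counting error only. A gene was tested when it had at least 5 CPM (reads scaled to a common library size) in either library and called when the libraries differed at least 2-fold. Treg markers were above 3 reads in every library (7 of 7 genes), but their levels differed. Foxp3 had 20.01 FPKM in WT, 137 in mosaic Brg1-sufficient, 62.7 in mosaic Brg1-deleted and 29.1 to 47.0 in the rKO1 libraries, and 20.8 and 13.4 in the aTreg libraries labelled Brg1-deleted and Brg1-reexpressed. Cd3e ranged from 27.6 to 168 FPKM in total Treg libraries and was 234 and 92.7 in the aTreg libraries in that order. Markers of other cell types in the total Treg libraries summed to up to 859 FPKM for 5 erythroid genes and 256 to 535 for 5 myeloid genes. The sums were 8.79 to 55.0 for 4 B cell genes and 4.70 to 19.5 for 4 CD8 T or NK cell genes. Most of the myeloid sum came from Lyz2 and Cst3, while Csf1r, Itgam and Cd14 reached at most 3.78, 0.24 and 1.98 FPKM. The aTreg library labelled Brg1-reexpressed stood apart, with an erythroid sum of 28827 FPKM, or 2.25% of its reads, against 1498 FPKM, or 0.119%, in the other aTreg library. Any part of other cell types in the values below was not tested.

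As the member with the widest range in these data, Bcl2 is shown by the 250 bases before its transcription start, at chr1:106714291-106714540 on the minus strand, with GC boxes (GGGCGG on either strand) in capitals. Bcl2l11, at chr2:128125788-128126037 on the plus strand, and Bbc3, at chr7:16310011-16310260 on the plus strand, are the BH3-only members that stood lower together with Bcl2 after BRG1 reexpression in rKO1 mice. For them the capitals mark the FOXO core (TGTTTAC on either strand), the motif of the FOXO factors that are known to induce both genes.
Bcl2: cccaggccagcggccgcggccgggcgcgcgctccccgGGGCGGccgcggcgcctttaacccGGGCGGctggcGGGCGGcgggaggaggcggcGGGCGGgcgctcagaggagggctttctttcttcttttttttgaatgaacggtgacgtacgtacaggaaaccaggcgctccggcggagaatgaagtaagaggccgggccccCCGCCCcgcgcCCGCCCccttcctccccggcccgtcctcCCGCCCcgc
Bcl2l11: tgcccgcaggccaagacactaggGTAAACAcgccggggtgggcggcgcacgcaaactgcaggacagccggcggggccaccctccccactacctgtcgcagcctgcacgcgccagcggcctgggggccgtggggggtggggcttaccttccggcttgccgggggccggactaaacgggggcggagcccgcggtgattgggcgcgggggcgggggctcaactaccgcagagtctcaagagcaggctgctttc
Bbc3: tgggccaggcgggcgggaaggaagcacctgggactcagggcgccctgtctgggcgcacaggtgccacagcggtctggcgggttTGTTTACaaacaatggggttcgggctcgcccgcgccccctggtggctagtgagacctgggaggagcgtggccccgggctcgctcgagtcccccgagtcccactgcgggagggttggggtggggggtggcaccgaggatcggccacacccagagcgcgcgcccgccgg
The sequences are RefSeq promoters on GRCm38.p6, which held 15 starts for 9 of the 10 members. Bcl2 had 7 GC boxes, from 213 to 9 bases before the start. A GC box was present in 10 of the 15 member promoters and in 32.7% of 32851 promoters of this length. The FOXO core was present in 2 of 15, at 227 bases before this Bcl2l11 start and 167 before this Bbc3 start, and in 3.17% of all promoters. The other starts of both genes had no FOXO core. The STAT element TTCNNNGAA was in 0 of 15 member promoters and 7.02% of all, and the E-box CACGTG was in 2 of 15 and 6.02% of all. These matches describe letters in a window and were chosen for display after the promoters had been searched. A part of FOXO factors in these samples was not tested.

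**Figure D1:**
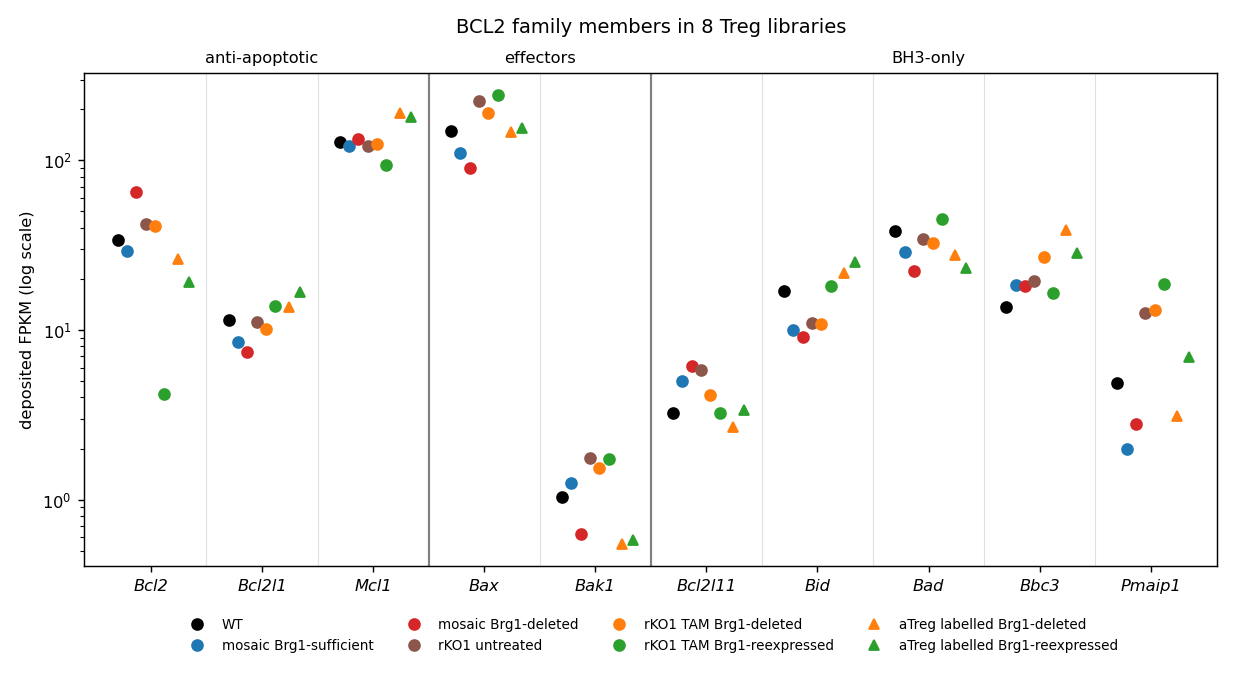
Deposited FPKM of the 10 members on a log axis, 1 point per library, with circles for total Treg and triangles for aTreg libraries and members grouped by role. Bcl2 in rKO1 TAM Brg1-reexpressed cells, at 4.18 FPKM, lies below its other total Treg points (29.3 to 64.8). Pmaip1 is higher in the 3 rKO1 total Treg libraries (12.7 to 18.8) than in the other 3 (2.0 to 4.88). How many of all genes split in this way was not counted.

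Among the anti-apoptotic members, Bcl2 varied most and Mcl1 least in total Treg cells. Bcl2 (ENSMUSG00000057329, chromosome 1, 106538178–106714274, minus strand) holds BAX and BH3-only proteins at mitochondria. It stood at 34.2 FPKM in WT, 29.3 in mosaic Brg1-sufficient, 64.8 in mosaic Brg1-deleted, 42.1 in rKO1 untreated, 41.1 in rKO1 TAM Brg1-deleted and 4.18 in rKO1 TAM Brg1-reexpressed cells. The highest value was 15.5 times the lowest. In this order of levels, the untreated and TAM Brg1-deleted rKO1 libraries did not differ beyond counting error (ratio 0.977, 0.944 to 1.01), whereas mosaic Brg1-sufficient and WT did (0.859, 0.826 to 0.893). In aTreg cells Bcl2 had 26.3 FPKM in the library labelled Brg1-deleted and 19.2 in that labelled Brg1-reexpressed. The gene shares 6.09% of its exon bases with a gene on the other strand, and whether strand was used in counting is not given in the sources used here.

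Mcl1 (ENSMUSG00000038612, chromosome 3, 95658788–95663176, plus strand), a short-lived anti-apoptotic protein, was the most abundant anti-apoptotic member in each of the 8 libraries. Its total Treg levels were 129 FPKM in WT, 121 in mosaic Brg1-sufficient, 134 in mosaic Brg1-deleted, 122 in rKO1 untreated, 125 in rKO1 TAM Brg1-deleted and 94.6 in rKO1 TAM Brg1-reexpressed cells. The first 5 lay within a narrow range, and the reexpressed library was again the lowest. The aTreg levels were 190 FPKM in the library labelled Brg1-deleted and 180 in the other.

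Bcl2l1 (ENSMUSG00000007659, chromosome 2, 152780668–152831728, minus strand), which encodes BCL-XL, ran the other way from Bcl2 at the extremes. It was lowest in mosaic Brg1-deleted cells at 7.38 FPKM and highest in rKO1 TAM Brg1-reexpressed cells at 13.9, with 11.5 in WT, 8.53 in mosaic Brg1-sufficient, 11.2 in rKO1 untreated and 10.2 in rKO1 TAM Brg1-deleted cells. The aTreg libraries labelled Brg1-deleted and Brg1-reexpressed had 13.6 and 16.7 FPKM.

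The effectors were carried by Bax (ENSMUSG00000003873, chromosome 7, 45461697–45466898, minus strand), the pore-forming member. It stood at 149 FPKM in WT, 110 in mosaic Brg1-sufficient, 90.3 in mosaic Brg1-deleted, 224 in rKO1 untreated, 190 in rKO1 TAM Brg1-deleted and 242 in rKO1 TAM Brg1-reexpressed cells. The 3 total Treg libraries from inflamed rKO1 mice were above the 3 from healthy mice, with no overlap. How many of all genes split in this way was not counted, so the split cannot be read as particular to Bax. The aTreg pair, from inflamed mice as well but in a separate experiment, had 148 and 155 FPKM. Bak1 (ENSMUSG00000057789, chromosome 17, 27019810–27029009, minus strand), the other effector, was measured by only 23 to 75 reads per library, or 0.547 to 1.76 FPKM, and did not reach 5 CPM in any library. A share of 25.5% of its exon bases overlaps another gene, on the other strand, and the corresponding share for Bax was 12.2%, on the same strand.

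The BH3-only genes differed in order from one another. Pmaip1 (ENSMUSG00000024521, chromosome 18, 66458533–66465565, plus strand) encodes NOXA, which neutralizes MCL1. Its levels were 4.88 FPKM in WT, 2.0 in mosaic Brg1-sufficient, 2.78 in mosaic Brg1-deleted, 12.7 in rKO1 untreated, 13.1 in rKO1 TAM Brg1-deleted and 18.8 in rKO1 TAM Brg1-reexpressed cells. The total Treg libraries from inflamed mice again lay above those from healthy mice, a split not counted over all genes. The highest level was 9.40 times the lowest. In aTreg cells it had 3.10 FPKM in the library labelled Brg1-deleted and 6.90 in that labelled Brg1-reexpressed.

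Bbc3 (ENSMUSG00000002083, chromosome 7, 16308393–16318205, plus strand) encodes PUMA, a BH3-only protein induced by p53 and FOXO factors. It had 13.6 FPKM in WT, 18.5 in mosaic Brg1-sufficient, 18.3 in mosaic Brg1-deleted, 19.3 in rKO1 untreated, 27.1 in rKO1 TAM Brg1-deleted and 16.5 in rKO1 TAM Brg1-reexpressed cells, with no split by inflammation. The aTreg libraries labelled Brg1-deleted and Brg1-reexpressed had 39.1 and 28.6 FPKM.

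Bcl2l11 (ENSMUSG00000027381, chromosome 2, 128126038–128162547, plus strand), the BIM gene that limits lymphocyte numbers, was a low-level member. It had 3.26 FPKM in WT, 5.03 in mosaic Brg1-sufficient, 6.16 in mosaic Brg1-deleted, 5.82 in rKO1 untreated, 4.16 in rKO1 TAM Brg1-deleted and 3.25 in rKO1 TAM Brg1-reexpressed cells. Its highest library was that of Bcl2, and its lowest, that of Bcl2 too, was level with WT. The aTreg libraries had 2.70 FPKM where labelled Brg1-deleted and 3.36 where labelled Brg1-reexpressed.

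Bid (ENSMUSG00000004446, chromosome 6, 120891930–120916853, minus strand), which links death receptors to mitochondria once cleaved, ranged from 9.11 FPKM in mosaic Brg1-deleted to 18.2 in rKO1 TAM Brg1-reexpressed cells, with WT at 16.9 and the other 3 between 10.1 and 11.1. Bad (ENSMUSG00000024959, chromosome 19, 6941861–6951899, plus strand), which is silenced by growth factor signalling through phosphorylation, had the same extremes, at 22.2 and 45.0 FPKM, with WT at 38.2 and the other 3 between 28.8 and 34.4. In aTreg cells Bid had 21.8 FPKM in the library labelled Brg1-deleted and 25.3 in the other, and Bad had 27.5 and 23.1. Exon bases shared with a gene on the other strand came to 17.7% for Bid and 20.5% for Bad.

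The first comparison asked what the loss of BRG1 goes with in healthy mice, where both kinds of Treg cell develop in the same females. The fractions also differed in the Foxp3 allele, Cre and YFP and in the sort gate, with Foxp3 at 62.7 FPKM in deleted and 137 in sufficient cells. The part of these differences was not tested. Bcl2 was 2.21-fold higher in mosaic Brg1-deleted than in mosaic Brg1-sufficient cells (2.14 to 2.28, from 14113 and 5592 reads) and was the only member called, 1 of 9 tested. Of all 10002 genes tested, 5.98% were called, 2.12% higher and 3.86% lower in deleted cells. The BH3-only genes Pmaip1 (1.39-fold higher, 1.09 to 1.77) and Bcl2l11 (1.22-fold higher, 1.12 to 1.34) lay above counting error in the same direction as Bcl2. Bad was 1.3-fold lower (1.21 to 1.40) and Bax 1.22-fold lower (1.16 to 1.28). Mcl1 was 1.11 times and Bcl2l1 0.865 times the sufficient level, while Bbc3 (0.990, 0.90 to 1.09) and Bid (0.904, 0.817 to 1.002) did not differ beyond counting error. Bak1, not tested, stood at a ratio of 0.50 with a wide interval (0.322 to 0.765, from 36 and 63 reads). The median log2 ratio of the 9 tested members was −0.01, beside −0.02 for all genes.

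The second comparison asked what BRG1 reexpression goes with in inflamed rKO1 mice. Bcl2 was 9.83-fold lower in rKO1 TAM Brg1-reexpressed than in rKO1 TAM Brg1-deleted cells (9.04 to 10.7, from 604 and 6269 reads). It was again the only member called of 9 tested, where 12.8% of 10333 genes were called, 6.21% higher and 6.56% lower. The other anti-apoptotic members split, with Mcl1 1.32-fold lower (1.28 to 1.37) and Bcl2l1 1.37-fold higher (1.25 to 1.51). Bax was 1.27-fold higher (1.23 to 1.32), and Bak1 had a ratio of 1.12 whose interval held 1 (0.782 to 1.62).

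The BH3-only members split in the rKO1 comparison as well. Bid was 1.68-fold (1.52 to 1.86), Pmaip1 1.44-fold (1.29 to 1.60) and Bad 1.38-fold higher (1.29 to 1.48) in reexpressed cells. Bbc3 was 1.64-fold lower (1.48 to 1.83) and Bcl2l11 1.28-fold lower (1.12 to 1.46). Their promoters were printed above because of this shared direction, so the direction is not a separate result for them. None of the 5 BH3-only members reached 2-fold. The median log2 ratio of the tested members was 0.35, beside 0.00 for all genes. Scaling the libraries by the total of recovered reads moved the median of all genes to −0.30, and Bbc3 was then called lower as well.

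The reexpressed library also differed in markers of T cell state, whose part in the Bcl2 value was not tested. The summed level of 7 resting T cell genes was 328 FPKM there, against 644 in rKO1 TAM Brg1-deleted cells, 462 in untreated rKO1 cells and 775 to 1145 in the healthy mice. The summed level of 6 cell cycle genes was 239 FPKM there, against 67.0 in rKO1 TAM Brg1-deleted cells and 22.3 to 65.4 in the other 4 libraries. In bulk cells, a change in the share of a cell state and a change in RNA per cell cannot be told apart.

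The third comparison asked the same question within activated cells, after cells outside the CD44hi CD62Llo gate had been left out. Pmaip1 was the only member called, 2.22-fold higher in the aTreg library labelled Brg1-reexpressed than in that labelled Brg1-deleted (1.83 to 2.71, from 377 and 148 reads), 1 of 9 tested where 6.38% of 10041 genes were called, 4.07% higher and 2.31% lower. Bcl2 was 1.37-fold lower (1.31 to 1.43) in the library labelled Brg1-reexpressed and was not called. Bbc3 was also 1.37-fold lower (1.27 to 1.48). Bcl2l11 at 1.25-fold (1.09 to 1.43), Bcl2l1 at 1.22-fold (1.13 to 1.32) and Bid at 1.16-fold (1.08 to 1.25) stood higher, whereas Bad was 1.19-fold lower (1.10 to 1.29). Mcl1 (0.947) and Bax (1.05) lay closest to equality. These directions rest on labels that the Smarca4 levels went against. The cell cycle sum was 37.1 FPKM in the library labelled Brg1-reexpressed and 15.7 in the other, with 6 of 6 genes higher, as in the rKO1 total Treg pair. The 7 resting T cell genes were all lower in the library labelled Brg1-reexpressed, against 5 of 7 in the total Treg pair. The resting T cell sum was 830 FPKM in the library labelled Brg1-deleted and 553 in the other.

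**Figure D2:**
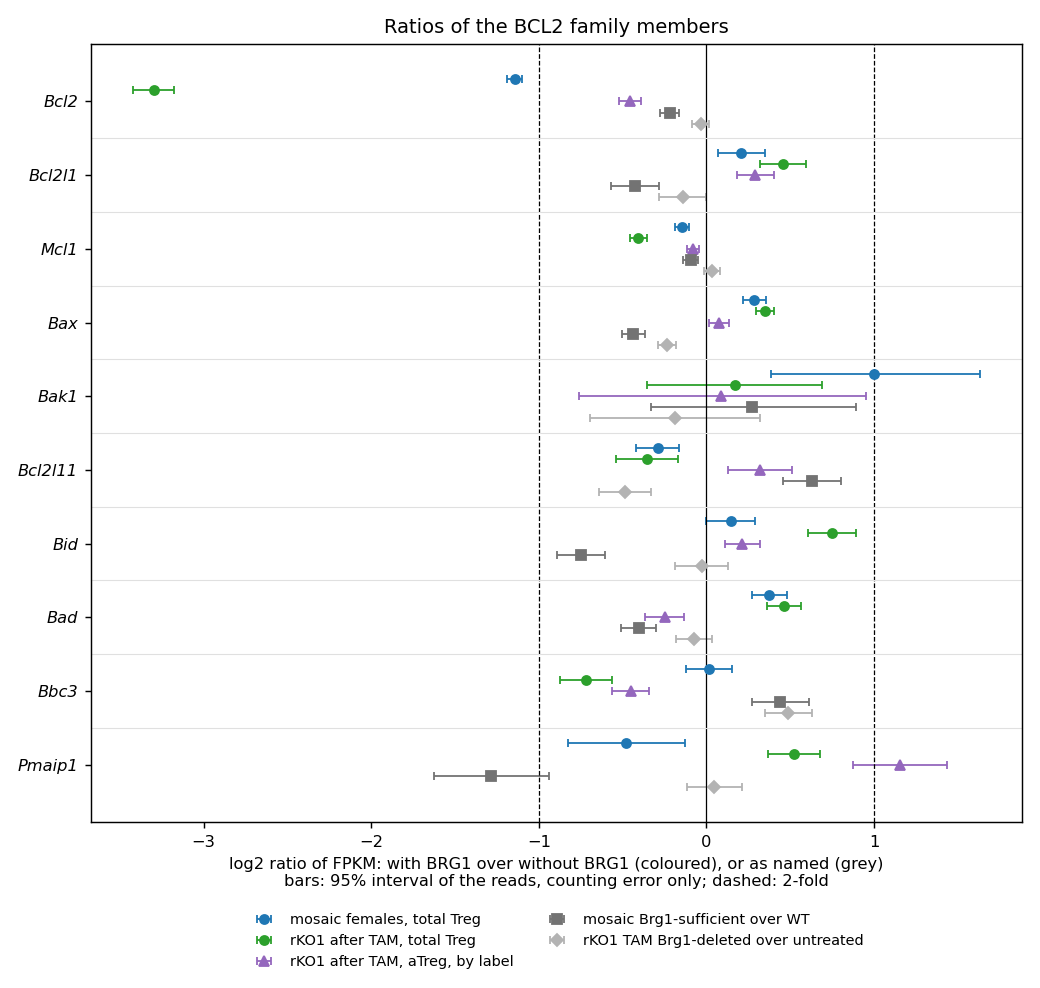
Log2 ratios of FPKM for the 10 members, with BRG1 over without BRG1 in mosaic females, in rKO1 mice after TAM and in aTreg cells by label, and in grey for 2 pairs of libraries of like BRG1 state. The mosaic fractions differ in Foxp3 allele and sort gate as well. Bars are 95% counting intervals and dashed lines mark 2-fold. Bcl2 lies left of 0 in the 3 coloured comparisons, at −1.14, −3.30 and −0.45, while Pmaip1 lies on both sides, at −0.48, 0.52 and 1.15.

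Pairs of libraries with the same BRG1 state by label served as a yardstick, since no replicates exist. Mosaic Brg1-sufficient and WT cells nevertheless differed in Foxp3 allele and sort gate. Between rKO1 TAM Brg1-deleted and rKO1 untreated cells, 0 of 9 members and 4.73% of 10573 genes were called, and Bcl2 and Pmaip1 had ratios of 0.977 and 1.03. The largest member ratios in that pair were 1.40 for Bbc3 (1.27 to 1.55) and 0.714 for Bcl2l11 (0.640 to 0.797). Between mosaic Brg1-sufficient and WT cells, Pmaip1 was 2.44-fold lower (1.92 to 3.08), 1 of 9 members called, where 9.22% of 10014 genes were called, 3.91% higher and 5.3% lower. In that pair Bid was 1.68-fold lower (1.52 to 1.85), Bcl2l11 1.55-fold higher (1.37 to 1.75), Bax 1.35-fold lower (1.29 to 1.42) and Bcl2 1.16-fold lower (1.12 to 1.21). The 2.21-fold and 9.83-fold Bcl2 differences were larger than the Bcl2 ratio in either pair. The FPKM differences of Bid, Bcl2l11 and Bax with BRG1 in total Treg cells were no larger than the same gene's ratio in 1 pair. The same held for Bad in mosaic females, but after reexpression Bad was at 1.38-fold against 1.32-fold. Trimmed-mean (TMM) scaling moved the median log2 ratio of all genes from 0.00 to 0.05 after reexpression. For mosaic Brg1-sufficient against WT it moved it from −0.04 to 0.06. With TMM, Bid and Bax after reexpression and Bad in mosaic females exceeded the same gene's ratio in either pair. Mcl1 at 1.32-fold, Bbc3 at 1.64-fold and Bcl2l1 at 1.37-fold after reexpression also exceeded their ratios in either pair. The Bbc3 level in reexpressed cells (16.5 FPKM), however, lay nearer to that in rKO1 untreated cells (19.3). With scaling by total reads, the Bcl2l1 and Bad differences after reexpression shrank to log2 ratios of 0.15 and 0.16. Both then fell below the mosaic Brg1-sufficient against WT pair, at 35.3 against 45.9 CPM for Bcl2l1 and 66.6 against 85.3 for Bad. The Pmaip1 differences in the mosaic and rKO1 comparisons and its 2.22-fold aTreg value were all smaller than its 2.44-fold difference between mosaic Brg1-sufficient and WT cells.

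Libraries from inflamed and healthy mice were also compared, with rKO1 untreated against WT first and then pairs of like BRG1 state. These comparisons share libraries with those above. In the pairs of like BRG1 state, only the rKO1 library was labelled as taken after TAM. Untreated rKO1 cells had 2.59-fold more Pmaip1 RNA than WT (2.21 to 3.06), the only member called of 9 where 16.2% of 10661 genes were called, 9.07% higher and 7.08% lower (1658 higher and 468 lower with scaling by total reads). Bcl2l11 was 1.79-fold (1.58 to 2.02), Bax 1.5-fold (1.44 to 1.57) and Bcl2 1.23-fold higher (1.19 to 1.28), and Bid was 1.53-fold lower (1.38 to 1.69), although the 2 groups differ in BRG1 as well.

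Between Brg1-deleted cells, rKO1 TAM over mosaic, Pmaip1 was 4.70-fold (3.97 to 5.57) and Bax 2.11-fold higher (2.02 to 2.20). These were 2 of 9 members called, where 13.6% of 10420 genes were called and 8.82% were called higher, and Bax fell short of 2-fold with trimmed-mean (TMM) scaling. Bcl2 was 1.58-fold lower (1.53 to 1.63) and Bcl2l11 1.48-fold lower (1.34 to 1.64) in the rKO1 TAM library. Untreated rKO1 cells had 42.1 FPKM of Bcl2 and 5.82 of Bcl2l11, against 64.8 and 6.16 in mosaic Brg1-deleted cells. The lower Bcl2l11 level was thus not shared to this extent by the untreated inflamed library.

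Between cells with BRG1, rKO1 TAM Brg1-reexpressed over mosaic Brg1-sufficient, Pmaip1 was 9.40-fold higher (7.68 to 11.5), Bax was 2.20-fold higher (2.11 to 2.29) and Bcl2 was 7.02-fold lower (6.46 to 7.65). These were 3 of 9 members, where 21.4% of 10116 genes were called, 11.5% higher and 9.83% lower. With scaling by total reads, lower calls (1298) outnumbered higher ones (949) and Bax was not called. Bid stood 1.81-fold (1.64 to 1.99), Bcl2l1 1.63-fold (1.49 to 1.79) and Bad 1.56-fold higher (1.46 to 1.67), Bcl2l11 was 1.55-fold lower (1.38 to 1.75), Mcl1 1.28-fold lower (1.24 to 1.33), and Bbc3 was near equality (0.893, 0.800 to 0.996).

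Ratios between members within a library do not depend on how libraries are scaled. The sum of the 3 anti-apoptotic genes over the sum of the 2 effectors was 1.17 in WT, 1.43 in mosaic Brg1-sufficient, 2.27 in mosaic Brg1-deleted, 0.779 in rKO1 untreated, 0.920 in rKO1 TAM Brg1-deleted and 0.462 in rKO1 TAM Brg1-reexpressed cells. On these 3 genes the libraries from inflamed mice lay below 1 and those from healthy mice above, but the split depended on the genes summed. With Bcl2a1a, Bcl2a1b and Bcl2a1d, anti-apoptotic genes that are not members, added after the data were seen, the ratios were 2.29, 2.42, 3.36, 2.12, 2.62 and 2.02 in the same order and overlapped between inflamed and healthy mice. The aTreg libraries, sorted from inflamed mice as well, were at 1.55 where labelled Brg1-deleted and 1.39 where labelled Brg1-reexpressed, with Mcl1 the main part of the numerator, and at 2.45 and 3.06 with the Bcl2a1 genes.

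Bcl2 over Bax was 0.229 in WT, 0.266 in mosaic Brg1-sufficient, 0.718 in mosaic Brg1-deleted, 0.188 in rKO1 untreated, 0.216 in rKO1 TAM Brg1-deleted and 0.0173 in rKO1 TAM Brg1-reexpressed cells. Bcl2 over its BH3-only antagonist Bcl2l11 was 10.5, 5.83, 10.5, 7.23, 9.89 and 1.29 in the same 6 libraries. The reexpressed library was the lowest on both ratios, and the aTreg libraries had a Bcl2 over Bax of 0.178 and 0.124 and a Bcl2 over Bcl2l11 of 9.76 and 5.71, in the order labelled Brg1-deleted and Brg1-reexpressed.

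Bcl2 made up 31.4% of the summed FPKM of the 3 anti-apoptotic members in mosaic Brg1-deleted cells, between 18.4% and 23.9% in WT, mosaic Brg1-sufficient, rKO1 untreated and rKO1 TAM Brg1-deleted cells, and 3.71% in rKO1 TAM Brg1-reexpressed cells. In the last, Mcl1 made up 83.9% and Bcl2l1 12.4%, each its highest share of the 8 libraries. The anti-apoptotic sum over the sum of the 5 BH3-only genes ranged from 1.11 in that library to 3.53 in mosaic Brg1-deleted cells, with the other 6 between 2.01 and 2.48.

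**Figure D3:**
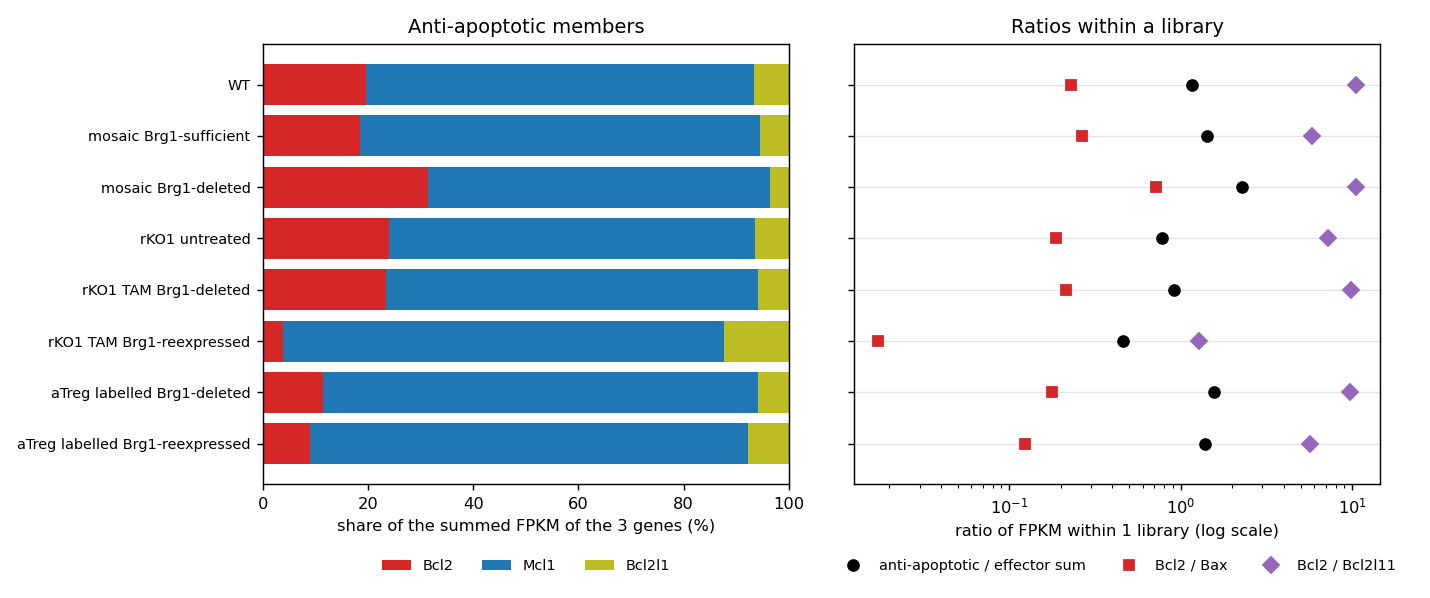
Left, the share of each anti-apoptotic gene in their summed FPKM for each library. Right, ratios of FPKM within a library on a log axis, where the rKO1 TAM Brg1-reexpressed library is lowest on all 3, at 0.462 (anti-apoptotic over effector), 0.0173 (Bcl2 over Bax) and 1.29 (Bcl2 over Bcl2l11).

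Other genes of the pathway were counted by list. Of 15 other BCL2 family genes, 6 were tested in the mosaic comparison and 8 in the rKO1 comparison, with 0 called in either. In the aTreg comparison, the anti-apoptotic genes Bcl2a1a (12.6 against 4.20 FPKM) and Bcl2a1d (186 against 88.2) were called higher in the library labelled Brg1-reexpressed, 2 of 9 tested beside 4.07% of all genes. The Bcl2a1 genes are near-identical copies, so the split of reads among them is uncertain. Between Brg1-deleted cells of inflamed and healthy mice 5 of 8 were called higher, beside 8.82% of all genes, namely Bcl2a1a, Bcl2a1b, Bcl2a1d, Bik and Bnip3, which were named after their values were seen. Bcl2a1d had 61.2 FPKM in mosaic Brg1-deleted and 226 in rKO1 TAM Brg1-deleted cells, and Bik, a BH3-only gene, had 2.095 and 10.2. Between rKO1 untreated and WT cells only Bcl2a1d was called (193 against 94.2 FPKM), 1 of 8. Untreated rKO1 cells had 3.65 FPKM of Bik and 2.87 of Bnip3, within the range of the healthy mice (2.095 to 3.91 and 1.73 to 4.80), and Bik was 2.80-fold higher in rKO1 TAM Brg1-deleted than in rKO1 untreated cells.

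Of 13 genes of the apoptosome, the caspases and their inhibitors that are reported here, all tested, 0 were called in the mosaic comparison. In the rKO1 comparison Birc5 was called higher in reexpressed cells (127 against 31.6 FPKM). Birc5, which encodes survivin, also serves cell division and is 1 of the 6 cell cycle genes summed above. Birc5 was also the only one of the 13 called in aTreg cells (17.7 FPKM where labelled Brg1-reexpressed, 6.43 in the other). The study itself had picked Bcl2 and Birc5 on these samples, so that their directions are not independent evidence.

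Of the 8 death receptor genes, 7 were tested in the mosaic and in the rKO1 comparison. Fasl, the ligand of the death receptor FAS, was called higher in mosaic Brg1-deleted cells (9.42 against 3.77 FPKM) and lower in rKO1 TAM Brg1-reexpressed cells (4.15 against 10.01). In aTreg cells 0 of 6 tested were called. Fasl stood in the other order there, at 12.4 FPKM where labelled Brg1-reexpressed and 6.89 where labelled Brg1-deleted. Of 17 regulators of the family, 16 were tested. Il7r, the receptor of a cytokine that sustains Bcl2 (4.90 against 24.8 FPKM), and Bag1, a BCL2-binding cochaperone (131 against 279), were called lower in mosaic Brg1-deleted cells. No regulator was called in the rKO1 comparison. Cdkn1a, a p53 target, fell just short of 2-fold there, with 90.6 FPKM in reexpressed and 46.2 in deleted cells. Cdkn1a was called higher in the aTreg library labelled Brg1-reexpressed (5.04 against 1.87 FPKM). In the mosaic pair Il7r and Bcl2 thus stood in opposite order, and in the rKO1 pair Il7r was nearly level (37.8 against 41.5 FPKM). Il7r was also called higher in mosaic Brg1-sufficient than in WT cells (24.8 against 11.6 FPKM). Its part in the Bcl2 levels was not tested.

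**Figure D4:**
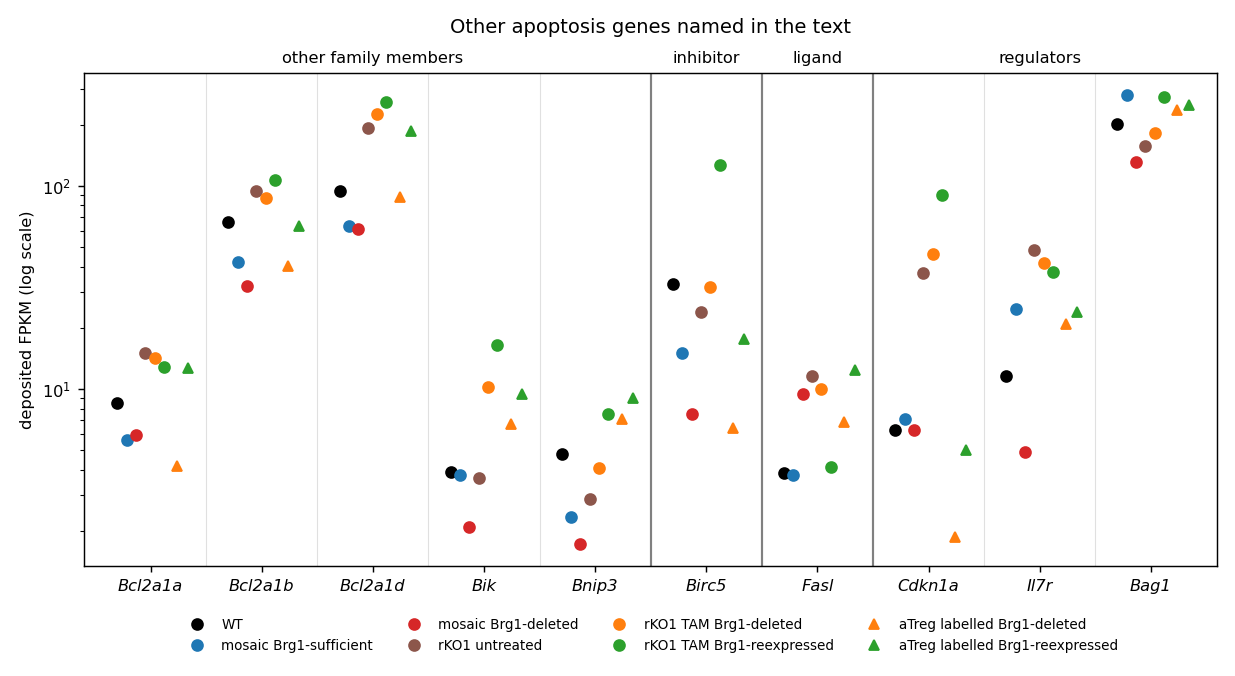
Deposited FPKM on a log axis of 10 other apoptosis genes in the 8 libraries, with circles for total Treg and triangles for aTreg. Birc5 is highest in rKO1 TAM Brg1-reexpressed cells (127 FPKM). Bcl2a1d is higher in the 3 rKO1 total Treg libraries (193 to 260) than in the other 3 (61.2 to 94.2), a split not counted over all genes.

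The genes whose levels followed Bcl2 most closely over the 6 total Treg libraries, among 8029 genes with at least 5 FPKM in any of them, were Usp3, Igfbp4, Sp110, Gm23706 and Gata1, with Pearson r of log2(FPKM + 1) from 0.986 to 0.996. Over the 5 libraries without rKO1 TAM Brg1-reexpressed, r was 0.826 to 0.959. For Mcl1 they were Gata1, Tnip1, Trdv2-2, Scml4 and Sp110 (0.988 to 0.998, and 0.887 to 0.983 without that library). For Bcl2l11 they were Cc2d1b, Gpr18, Satb1, Ssh1 and Traj29 (0.980 to 0.994, and 0.972 to 0.996). The points share libraries and scaling, and r describes likeness of pattern only.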

How the data were processed

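Total RNA from 0.1 M sorted CD4+CD25+YFP+ Treg cells (aTreg cells also CD44hi CD62Llo, mosaic Brg1-sufficient cells YFP-negative) was converted to cDNA with the SMART-Seq v4 kit and sequenced as paired 150-base reads on 8 libraries. The submitters' processing notes name HISAT2 2.0, StringTie 1.3.3b, featureCounts 1.5.0-p3 and mm10, without roles; strand in counting is not given in the sources used here. The authors deposited FPKM values, 1 column per library, and these are the levels and ratios reported. Groups were taken from the sample titles.

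Reads were recovered as FPKM multiplied by merged exon length in GENCODE M21 (GRCm38), which held 53360 of 53465 identifiers. Whole numbers (within 0.02 reads or 0.01%) resulted in every library for 93.9% of 26020 genes with reads in the total Treg experiment and 100% of 21242 in aTreg. Bad and Pmaip1 did not give whole reads in the total Treg files, so their reads there are approximate and their FPKM ratios are unaffected. The total implied by FPKM was 0.815 to 1.08 times the recovered reads, which served for the filter of 5 CPM, the Clopper-Pearson intervals, scaling alternatives and the floor of 3 reads. A call needed a difference of at least 2-fold. Named genes were the members, list genes past 2-fold in the mosaic, rKO1 or aTreg comparison, and the 5 genes most like Bcl2, Mcl1 and Bcl2l11. Steps were checked on simulated data.

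Members and lists were chosen with earlier results of these data known. A gene of a pathway list is not reported here. Alternatives were pseudocounts of 0.1 and 1, TMM, total reads, median-of-ratios, a filter of 1 FPKM and no filter; TMM over the 2 libraries of a comparison and an anti-apoptotic sum with 3 Bcl2a1 genes were added after seeing the data. Python 3.11.15, NumPy 2.4.6, pandas 2.3.3, SciPy 1.17.1 and matplotlib 3.10.9 were used.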

Additional observations from a re-analysis of the deposited data

Results flagged for a closer look

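Each of the following genes stood on opposite sides of equality with BRG1 over without BRG1 in different settings. Each setting is 1 pair of libraries, the difference between settings was not tested, and the aTreg sign rests on the labels. Bcl2l11 had log2 ratios of −0.29 in mosaic females and −0.35 in rKO1 total Treg cells against 0.32 in aTreg cells. Bad had 0.38 and 0.46 against −0.25. Pmaip1 had −0.48 in mosaic females against 0.52 in rKO1 total Treg cells and 1.15 in aTreg cells. Smarca4, the targeted gene, had 0.70 and 0.64 in the total Treg pairs against −0.30 in aTreg cells.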

How the results depend on the processing

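In the mosaic and rKO1 comparisons Bcl2 kept its direction and stayed past 2-fold under every alternative, with log2 ratios from 1.12 to 1.27 and from −3.60 to −3.02. In the aTreg comparison Pmaip1 ranged from 0.94 to 1.22 and Bcl2 from −0.45 to −0.39. Among the 10 members in these 3 comparisons, signs changed only for Bbc3 in the mosaic comparison and Bak1 in the rKO1 comparison, both with total reads (0.11 and −0.13). With total reads, 9 members in the rKO1 comparison and 4 in the mosaic comparison left their counting intervals. Member counts moved with log2(FPKM + 1) to 0 in the aTreg and the mosaic Brg1-sufficient against WT comparisons (Pmaip1 lost), with total reads to 2 in the rKO1 (Bbc3 added) and the rKO1 untreated against WT comparisons (Bcl2l11 added), with TMM to 1 between Brg1-deleted cells (Bax lost), with total reads from 3 to 2 between cells with BRG1 (Bax lost), and with the filter of 1 FPKM or no filter to 2 in the mosaic comparison (Bak1 added). The filter of 1 FPKM and no filter added Bak1 between Brg1-deleted cells, from 2 to 3.

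Counts over all genes moved with log2(FPKM + 1) to 333 in the mosaic, 746 in the rKO1, 301 in the aTreg, 1090 in the rKO1 untreated against WT, 864 in the Brg1-deleted, 555 in the mosaic Brg1-sufficient against WT and 229 in the rKO1 TAM Brg1-deleted against untreated comparison. With the filter of 1 FPKM the same 7 counts were 1263, 2156, 1172, 2720, 2339, 1724 and 1272. Without a filter they were 3273, 4368, 3364, 5089, 4861, 3724 and 3245, and 5435 between cells with BRG1. More or fewer genes pass by construction. Total reads changed the split of higher and lower calls from 212 and 386 to 308 and 306 in the mosaic comparison and from 642 and 678 to 372 and 1262 in the rKO1 comparison. It changed it from 967 and 755 to 1658 and 468 between rKO1 untreated and WT, from 1166 and 994 to 949 and 1298 between cells with BRG1, and from 242 and 258 to 192 and 356 between rKO1 TAM Brg1-deleted and untreated cells. TMM changed it from 919 and 493 to 790 and 626 between Brg1-deleted cells, and from 392 and 531 to 503 and 419 between mosaic Brg1-sufficient and WT cells.

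No paired analysis was possible because each group holds 1 library and leaving out a replicate would leave none. Intervals cover counting error and not differences between mice or sorts. Bak1, with 23 to 75 reads, was not measurable to better than its printed intervals.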
